A study of Mus musculus with 11 samples.

Results

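The genes described here encode the protein parts of the cytosolic ribosome, and their read counts were followed across 4 populations of T cells sorted from inflamed mouse kidneys. Members were the rows of the count table entered as protein coding whose symbol was Rpl or Rps followed directly by a digit, or was Rpsa, Rplp0, Rplp1 or Rplp2. Symbols beginning with Rps6k, the S6 kinases, were left out. The rule found 96 genes among the 46078 in the table, and it used no measured value. By symbol, 40 of the 96 were large subunit proteins, 29 were small subunit proteins, 8 were paralogs of such genes, 18 carried a pseudogene name and 1, Rps19bp1, encodes a protein that binds Rps19 and is not itself part of the ribosome.

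Mice of wild type genotype were immunised with myeloperoxidase (MPO), the neutrophil enzyme that is an autoantigen in ANCA-associated vasculitis, and then given a low dose of sheep globulin raised against mouse basement membrane, which sets off glomerulonephritis. Kidneys were taken on day 21 and T cells were sorted on CD4 or CD8, on CD127 (the alpha chain of the IL-7 receptor) and on PD-1 (an inhibitory receptor induced by antigen stimulation). The 4 groups were CD4+CD127-PD-1+ (n = 2), CD4+CD127+PD-1- (n = 3), CD8+CD127-PD-1+ (n = 3) and CD8+CD127+PD-1- (n = 3), all from mice given the immunisation and the globulin. Each library came from cells pooled over 3 mice, so the spread between libraries is a spread between pools, and the labels name another CD4+CD127-PD-1+ pool that did not meet quality control and is not analysed here. The question put to these data is how the ribosomal protein genes differed between the CD127-PD-1+ and CD127+PD-1- states within each lineage, and between CD4 and CD8 cells within each state.

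A ribosome is built from ribosomal RNA and a fixed set of proteins, most of them present in a single copy, in a large subunit that joins amino acids and a small subunit that reads the messenger RNA. Resting T cells hold few ribosomes, and stimulation through the antigen receptor is known to raise ribosome production through the kinase mTOR and the factor Myc. In mammals the messenger RNAs of ribosomal proteins typically begin with a run of pyrimidines, the 5' terminal oligopyrimidine (TOP) tract, through which mTOR controls their translation.

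The promoter sequences of 9 members are printed so that the stretch around the annotated start, where such a run would lie, can be read in genes with the largest, smaller and no called differences below. They are RefSeq windows on GRCm38.p6 reaching from 50 bases before the annotated start to 30 bases of transcript. Capitals mark the longest unbroken run of C and T on the gene's strand between 40 bases before and 30 bases after that start, and the sequences were chosen after the values were seen.
Rps27, chr3:90213619-90213698, minus strand: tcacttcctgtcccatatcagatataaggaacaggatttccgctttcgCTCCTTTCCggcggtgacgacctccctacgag
Rpl13, chr8:123102300-123102379, plus strand: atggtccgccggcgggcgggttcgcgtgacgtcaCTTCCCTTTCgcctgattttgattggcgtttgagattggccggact
Rpl31, chr1:39367801-39367880, plus strand: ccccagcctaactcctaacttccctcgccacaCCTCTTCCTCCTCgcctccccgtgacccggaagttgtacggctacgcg
Rpl4, chr9:64173337-64173416, plus strand: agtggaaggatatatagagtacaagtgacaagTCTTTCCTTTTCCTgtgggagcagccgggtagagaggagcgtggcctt
Rps6, chr4:86857338-86857417, minus strand: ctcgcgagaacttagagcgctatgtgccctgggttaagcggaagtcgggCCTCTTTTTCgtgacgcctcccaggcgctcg
Rpl12, chr2:32961662-32961741, plus strand: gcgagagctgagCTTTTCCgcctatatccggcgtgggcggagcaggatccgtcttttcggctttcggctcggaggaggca
Rpl10, chrX:74270766-74270845, plus strand: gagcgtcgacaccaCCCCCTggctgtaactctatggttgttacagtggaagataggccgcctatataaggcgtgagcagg
Rpl7l1, chr17:46782627-46782706, minus strand: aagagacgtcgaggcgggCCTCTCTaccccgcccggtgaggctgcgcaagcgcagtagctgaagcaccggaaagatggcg
Rps19bp1, chr15:80264277-80264356, minus strand: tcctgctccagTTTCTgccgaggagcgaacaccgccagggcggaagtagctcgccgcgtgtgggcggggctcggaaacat

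The run was 9 bases long in Rps27, 10 in Rpl13, 13 in Rpl31, 14 in Rpl4 and 10 in Rps6. It was 7 bases in Rpl12, 6 in Rpl10, 7 in Rpl7l1 and 5 in Rps19bp1, under the minimum of 8 used below. In Rps27 and Rps6 the capitals reached across the annotated start, and in the other 7 they lay wholly before it. Of equal runs only the first is in capitals. In Rpl12 an equal run of 7 bases, left in lower case, lies just after the annotated start. Among members whose sequences are not printed, the run was 6 bases in Rps23 and Rps3 and 7 in Rps15, Rpl37a and Rplp0. It was 5 bases in Rpl36al and 10 in Rplp2. Rps23, with its short run, was among the members that fell in both lineages below. Whether run length goes with the fold changes was not tested. RefSeq windows were found for 57 of the 96 members and for 49 of the 69 core large and small subunit genes, which had 59 windows. A pyrimidine run of at least 8 bases in the same stretch was present in 57.6% of the 59 core windows, against 26.8% of all 32851 windows. That stretch takes in bases before the annotated start, so these are not shares of transcripts that begin with a TOP tract. RefSeq starts also differ from the GENCODE gene starts in some members, such as Rpl12.

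The other motifs were searched on both strands of the whole 300-base window, in windows that share the same starts. CCGGAAG, the core that ETS family factors bind, was in 37.3% of core windows and 8.86% of all windows. AAGATGGCG, the core of the YY1 motif, was in 8.47% of core windows and 1.40% of all windows. CACGTG, the E-box that Myc binds, was in 13.6% and 7.15%, and TATAAA, the TATA box, in 8.47% and 13.6%. The last 3 letters of CCGGAAG can also be the first 3 of AAGATGGCG. A match says only that the letters are in the window.

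Library totals ran from 10572505 to 16057310 counts. The 7 pan-T markers summed to between 1099 and 1852 CPM (counts scaled to a common library size, per 1e6) in every library, and none of them was at 0. The CD4 lineage markers summed to 535 to 729 CPM in CD4 libraries and 9.70 to 17.3 CPM in CD8 libraries, and the CD8 lineage markers to 1.75 to 62.5 CPM in CD4 libraries and 793 to 1172 CPM in CD8 libraries. Mitochondrially encoded genes took a mean of 32.7% of counts in CD4+CD127-PD-1+ and 31.2% in CD4+CD127+PD-1- libraries. They took 38.5% to 44.8% in CD8+CD127-PD-1+ libraries, above the 30.7% to 33.8% of CD8+CD127+PD-1- libraries, without overlap.

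Markers of some other cells also moved with the sorted state. The 9 macrophage markers summed to 774 and 1590 CPM in CD4+CD127-PD-1+ libraries, against 37.7 to 77.5 CPM in CD4+CD127+PD-1- libraries, and to 682 to 1319 CPM in CD8+CD127-PD-1+ libraries, against 39.5 to 70.5 CPM in CD8+CD127+PD-1- libraries. The 7 plasmacytoid dendritic cell markers ran the other way, with 120 and 303 CPM against 702 to 1512 CPM in CD4 cells and 223 to 301 CPM against 523 to 1170 CPM in CD8 cells. The 4 neutrophil markers summed to 22.58 and 30.998 CPM against 2.69 to 4.19 CPM in CD4 cells, and to 36.0 to 226 CPM against 2.15 to 11.7 CPM in CD8 cells. The 4 B cell markers summed to 8.76 and 46.0 CPM against 7.54 to 28.95 CPM in CD4 cells, which overlap. In CD8 cells they summed to 51.7 to 156 CPM against 7.48 to 34.1 CPM. None of these markers was at 0 in any group, and their part in the results below was not tested. The 5 kidney tubule markers overlapped between the states, with 25.9 and 49.4 CPM against 45.0 to 124 CPM in CD4 cells. In CD8 cells they summed to 10.8 to 56.8 CPM against 6.86 to 251 CPM. The 4 red cell markers summed to 53.2 CPM in CD8+CD127+PD-1- replicate 2 and to at most 0.595 CPM in every other library. The part of these 2 lists was not tested either. In bulk RNA, fewer cells of a type and less RNA per cell cannot be told apart.

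Ribosomal protein genes took a small share of the counts in all 4 populations, and that share was lower in the CD127-PD-1+ state. The 96 members together held 0.789% and 1.04% of counts in the CD4+CD127-PD-1+ libraries, against 1.18%, 1.24% and 1.66% in the CD4+CD127+PD-1- libraries. They held 0.794%, 0.930% and 1.07% in the CD8+CD127-PD-1+ libraries, against 1.77%, 1.80% and 1.90% in the CD8+CD127+PD-1- libraries. In the CD4 cells the higher CD4+CD127-PD-1+ library came close to the lowest CD4+CD127+PD-1- one, and the groups did not overlap in either lineage. With mitochondrially encoded genes left out of the total, the means were 1.36% ± 0.259 against 1.98% ± 0.384 in CD4 cells and 1.62% ± 0.245 against 2.71% ± 0.139 in CD8 cells (SD, n = 2, 3, 3 and 3).

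The subunits stood in overlapping proportions in the 2 states of each lineage. On the scale of CPM with TMM-scaled library sizes, the members of the CD4+CD127-PD-1+ libraries summed to 8758 ± 1641 CPM, against 12899 ± 2489 CPM for CD4+CD127+PD-1-. For CD8+CD127-PD-1+ the sum was 10571 ± 1374 CPM, against 17510 ± 843 CPM for CD8+CD127+PD-1-. The ratio of the summed CPM of the 40 large subunit genes to that of the 29 small subunit genes was 1.57 ± 0.153 for CD4+CD127-PD-1+ and 1.51 ± 0.0553 for CD4+CD127+PD-1-. Among CD8 cells it was 1.57 ± 0.114 in the CD127-PD-1+ and 1.48 ± 0.0113 in the CD127+PD-1- state (SD, n = 2, 3, 3 and 3).

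**Figure D1:**
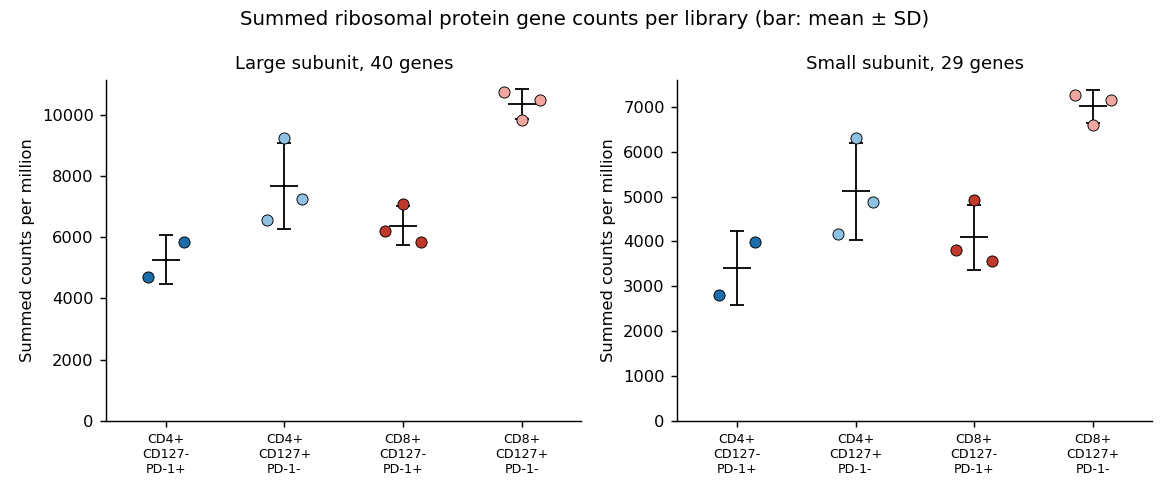
Summed CPM of the 40 large subunit genes (left) and the 29 small subunit genes (right) in each of the 11 libraries, by sorted group; points are libraries and bars give the mean ± SD. In both panels the CD127-PD-1+ libraries of a lineage sit below its CD127+PD-1- libraries, with the highest sums in CD8+CD127+PD-1- cells.

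In each library the 10 members with the most counts held between 31.8% and 35.2% of member counts. Rpl4, a large subunit protein with a loop in the exit tunnel through which the growing peptide leaves, was the most abundant per length, with a mean of 500 CPM per kb of exon, and it held 8.06% ± 0.967 of member counts in CD4+CD127-PD-1+, 7.66% ± 0.670 in CD4+CD127+PD-1-, 8.36% ± 1.08 in CD8+CD127-PD-1+ and 7.80% ± 0.161 in CD8+CD127+PD-1- cells. Next per kb were Rps23, a small subunit protein at the decoding centre, with 288 CPM per kb, Rpl32 with 281, Rps15 with 278 and Rps3a1 with 229. The median of the 81 tested members was 64.8 CPM per kb. The lowest per kb of the tested members were Rpl7l1, a paralog of Rpl7 that acts in the making of large subunits, with 2.09 CPM per kb, and pseudogene-named Rpl10-ps3 (1.98), Rpl13a-ps1 (1.502), Rps26-ps1 (1.20) and Rpl13-ps3 (0.854).

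Among CD8 cells, most members had less RNA in the CD127-PD-1+ state. Of the 81 members with enough counts to test, 63 fell and 0 rose (edgeR quasi-likelihood test, Benjamini-Hochberg adjusted p under 0.05), beside 6.56% of all 16365 tested genes that fell and 9.05% that rose. The median log2 fold change of the members was -0.71, that of all tested genes 0.01, and 80 of the 81 estimates were below 0. In 70 of the 81 every CD8+CD127-PD-1+ library lay below every CD8+CD127+PD-1- library, which held for 16.4% of all tested genes. Among the 69 core genes 60 fell, 35 of 40 in the large and 25 of 29 in the small subunit. With a library left out, the count was 21 without CD8+CD127-PD-1+ replicate 3, 35 without CD8+CD127-PD-1+ replicate 1 and 35 without CD8+CD127+PD-1- replicate 1. Calls over all tested genes dropped as well, from 1074 of 16365 that fell to 614 of 16221, 868 of 16256 and 753 of 16254. In all 11 fits that left out a library, the same 21 genes passed, among them Rplp1, Rpl12, Rps27, Rpl5, Rpl13, Rpl31, Rpl4, Rps24, Rps20 and Rps6.

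The largest fall in CD8 cells was that of Rplp1, a protein of the P stalk (the flexible arm of the large subunit that recruits the translation factors, chromosome 9, 61913284 to 61914542, GRCm38). Rplp1 measured 65.8, 68.1 and 92.6 CPM in CD8+CD127-PD-1+ libraries, against 161, 167 and 174 CPM in CD8+CD127+PD-1- libraries. The groups lay far apart, and the log2 fold change was -1.15 (SE 0.23, adjusted p = 0.00567). Rpl13, a large subunit protein, measured 156, 161 and 187 CPM against 306, 349 and 382 CPM, a log2 fold change of -1.04 (SE 0.16, adjusted p = 0.00145). Rps27, a zinc finger protein of the small subunit, measured 128, 165 and 190 CPM against 311, 330 and 346 CPM, a log2 fold change of -1.03 (SE 0.19, adjusted p = 0.00334). Rps20, in the head of the small subunit, measured 100, 107 and 135 CPM against 207, 225 and 230 CPM, a log2 fold change of -0.95 (SE 0.16, adjusted p = 0.00233).

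Rpl5 binds 5S ribosomal RNA together with Rpl11, and that particle can also hold back Mdm2, the ligase that degrades p53. In CD8 cells Rpl5 (chromosome 5, 107900502 to 107909005) measured 204, 208 and 238 CPM in the CD127-PD-1+ state and 386, 405 and 431 CPM in the CD127+PD-1- state, and its log2 fold change was -0.91 (SE 0.14, adjusted p = 0.00112). Rpl4, the most abundant member, measured 863, 866 and 892 CPM against 1322, 1374 and 1398 CPM, a log2 fold change of -0.64 (SE 0.09, adjusted p = 0.000995). Every one of these falls was larger than the spread between the libraries of a group. The smallest falls past the threshold among members whose average log2 CPM was 4 or more were those of Rpl10 (-0.39, SE 0.11, adjusted p = 0.0326), Rpl14 (-0.50), Rpl15 (-0.53), Rpl10a (-0.53) and Rpsa (-0.54). These 5 were not among the 21 that passed with any library left out: without CD8+CD127-PD-1+ replicate 3 the adjusted p of Rpsa was 0.0833, and the highest of Rpl10 was 0.116, without CD8+CD127+PD-1- replicate 1.

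In CD4 cells the members leaned the same way, with fewer calls. Of the 81, 21 fell and 0 rose, beside 4.87% of all tested genes that fell and 6.81% that rose. The median log2 fold change was -0.57, against 0.02 over all tested genes, and 79 estimates were below 0. The libraries of the 2 states did not overlap in 43 members, all lower in CD4+CD127-PD-1+, which held for 19.4% of all tested genes. Core calls were 15 of 40 in the large and 5 of 29 in the small subunit. All 21 genes that fell in CD4 cells also fell in CD8 cells, which is 100% of the CD4 and 33.3% of the CD8 calls.

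The CD4 count rested on single libraries. Without CD4+CD127-PD-1+ replicate 1 only Rpl31 passed, 1 of the 21, and the median was -0.38. Without CD4+CD127+PD-1- replicate 2 the count was 7, and without CD4+CD127+PD-1- replicate 3 it was 13. In these 2 fits 500 of 16244 and 582 of 16287 tested genes fell, against 797 of 16365 with all libraries. Leaving out a CD4+CD127-PD-1+ library kept 1 library in that group, and fewer of all tested genes fell there too. Replicate 1 of CD4+CD127-PD-1+ had the lower member sum of its group, 7598 CPM beside 9919 CPM in replicate 2, and the higher macrophage marker sum, 1590 beside 774 CPM. Without replicate 2 of that group the count was 15, of which 9 were among the 21.

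Rpl31, a protein at the rim of the exit tunnel, was the member whose call held with any library left out, in CD4 and in CD8 cells, and it was picked out after its values were seen. It measured 174 and 182 CPM in CD4+CD127-PD-1+ libraries, against 250, 293 and 342 CPM in CD4+CD127+PD-1- libraries, and its log2 fold change was -0.73 (SE 0.13, adjusted p = 0.00449). In CD8 cells it measured 207, 207 and 217 CPM against 335, 353 and 370 CPM, with a log2 fold change of -0.75 (SE 0.11, adjusted p = 0.00110). Its adjusted p with a library left out stayed at or below 0.0378 in CD4 and 0.00713 in CD8 cells. The libraries of the 2 states did not overlap in either lineage.

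The largest CD4 falls among members whose average log2 CPM was 4 or more were those of Rplp1, Rps27, Rps24, Rpl12 and Rpl5. Rplp1 measured 47.9 and 60.3 CPM in CD4+CD127-PD-1+ libraries and 75.6, 82.1 and 145 CPM in CD4+CD127+PD-1- libraries, a log2 fold change of -0.90 (SE 0.26, adjusted p = 0.0430). Rps24, a small subunit protein needed for processing of the ribosomal RNA precursor, measured 198 and 211 CPM against 309, 329 and 469 CPM (-0.85, SE 0.18, adjusted p = 0.0111). Rpl5 measured 163 and 207 CPM against 288, 297 and 389 CPM (-0.81, SE 0.15, adjusted p = 0.00737). In all 3 genes replicate 2 was the high library of the CD4+CD127+PD-1- group. Among the smallest CD4 calls were those of Rpl4 (-0.49, SE 0.11, adjusted p = 0.0133), Rpl3 (-0.50), Rpl14 (-0.53) and Rpl21 (-0.55). Without CD4+CD127-PD-1+ replicate 1 the adjusted p was 0.221 for Rplp1, 0.0752 for Rps24, 0.0671 for Rpl5 and 0.103 for Rpl4.

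**Figure D2:**
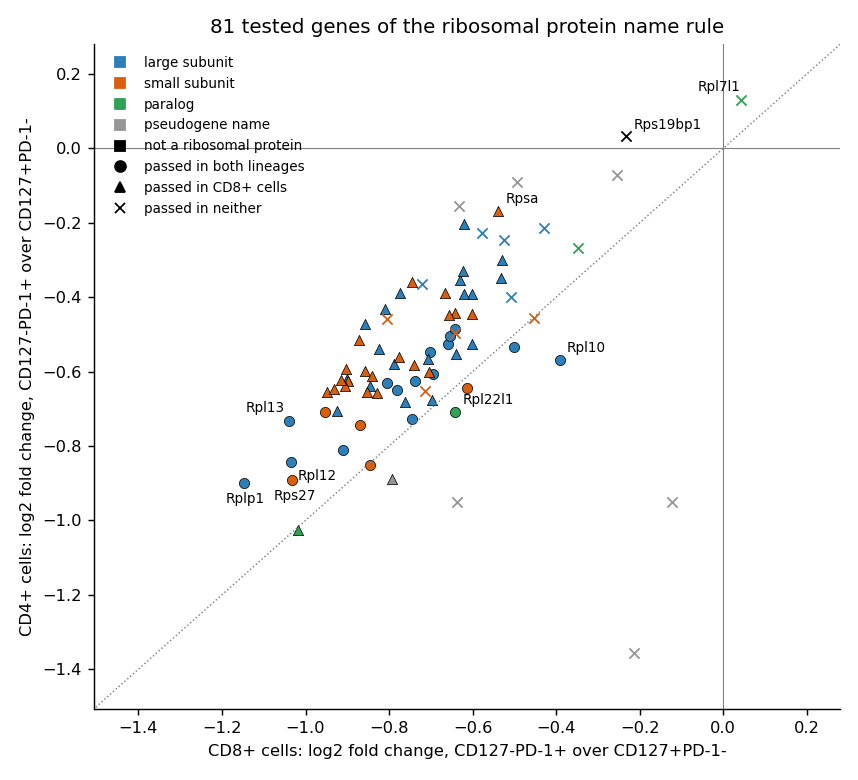
Log2 fold change of CD127-PD-1+ over CD127+PD-1- in CD4 cells (vertical axis) against CD8 cells (horizontal axis) for the 81 tested members; colour gives the class by name, the marker shape gives where the adjusted p was under 0.05, and the dotted line marks equal values. Nearly all points lie below 0 on both axes, and Rpl7l1 is at 0.13 for CD4 and 0.04 for CD8 cells, or -0.19 for CD8 cells when scaled by total counts.

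By role, the P stalk members Rplp0, Rplp1, Rplp2 and Rpl12 had a median log2 fold change of -0.98 in CD8 cells, where 4 of 4 fell, and -0.77 in CD4 cells, where Rplp1 and Rpl12 did. Rpl12 measured 136, 147 and 193 CPM against 307, 323 and 345 CPM in CD8 cells (-1.04, SE 0.20, adjusted p = 0.00486) and 124 and 178 CPM against 210, 251 and 350 CPM in CD4 cells (-0.84, SE 0.23, adjusted p = 0.0325). Rplp0, the base of the stalk, had 107, 111 and 168 CPM against 214, 242 and 243 CPM in CD8 cells (-0.86, SE 0.26, adjusted p = 0.0429), a call lost in 7 of the 11 fits with a library left out. In CD4 cells Rplp0 overlapped between the states, with 65.5 and 141 CPM against 115, 146 and 170 CPM (-0.47, adjusted p = 0.345). Of 8 proteins around the exit tunnel, 8 fell in CD8 and 4 in CD4 cells. Of 11 proteins of the head of the small subunit, 10 fell in CD8 and 2 in CD4 cells, and of 6 proteins at the entry and exit of the mRNA channel, 5 and 0 did. Over all tested members 63 of 81 fell in CD8 and 21 in CD4 cells, and over all tested genes 6.56% and 4.87% did. The CD8 numbers are parts of the 63 calls of which 21 passed without CD8+CD127-PD-1+ replicate 3, and the CD4 numbers parts of the 21 of which only that of Rpl31 passed without CD4+CD127-PD-1+ replicate 1.

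The genes mutated in Diamond-Blackfan anaemia, a human failure of red cell production caused by loss of 1 copy of a ribosomal protein gene, had 17 members here. In CD8 cells 14 of them fell (median -0.80) and in CD4 cells 5 did (median -0.64). These shares were near those over all tested members, 63 of 81 in CD8 and 21 of 81 in CD4 cells. Over all tested genes 6.56% and 4.87% fell. The member count in CD8 cells was 21 without CD8+CD127-PD-1+ replicate 3, and the CD4 count rested on single libraries as given above. Rps19, the most often mutated of them, measured 38.1, 45.4 and 54.4 CPM against 78.6, 82.9 and 90.4 CPM in CD8 cells (-0.87, SE 0.19, adjusted p = 0.0110), and 30.2 and 47.1 CPM against 53.7, 61.0 and 79.3 CPM in CD4 cells (-0.74, SE 0.22, adjusted p = 0.0498). The CD8 call of Rps19 passed in 10 of the 11 fits with a library left out, with 0.0521 as the highest adjusted p. Rps26 fell in CD8 cells (-0.74, SE 0.22, adjusted p = 0.0409, 5 of the 11 fits) and overlapped between the states in CD4 cells, with 47.8 and 88.1 CPM against 71.5, 83.9 and 106 CPM.

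Rps6, whose tail is phosphorylated by the S6 kinases and serves as the usual readout of mTOR activity, measured 158, 164 and 182 CPM against 278, 288 and 296 CPM in CD8 cells (-0.78, SE 0.16, adjusted p = 0.00637, past the threshold in all 11 fits). In CD4 cells it measured 117 and 145 CPM against 156, 175 and 248 CPM (-0.56, SE 0.18, adjusted p = 0.0635). Rpsa, which lies at the mRNA exit and is also known as a laminin receptor, was among the least different core genes in CD4 cells, with 222 and 327 CPM against 276, 299 and 350 CPM (-0.17, SE 0.16, adjusted p = 0.558). In CD8 cells its groups were apart, with 282, 287 and 321 CPM against 407, 432 and 454 CPM (-0.54, SE 0.14, adjusted p = 0.0233). Rpl10a, linked in mouse cells to selective translation, had a log2 fold change of -0.53 in CD8 cells (SE 0.13, adjusted p = 0.0161) and -0.35 in CD4 cells (adjusted p = 0.151). Rpl38, which acts in the translation of Hox messenger RNAs in mouse embryos, did not pass in CD8 (-0.72, adjusted p = 0.0664) or CD4 cells (-0.36, adjusted p = 0.448). Rps29 (-0.92, adjusted p = 0.0134), Rps14 (-0.90, adjusted p = 0.0183), Rps4x (-0.83, adjusted p = 0.0378), Rpl39 (-0.70, adjusted p = 0.0486) and Rpl13a (-0.60, adjusted p = 0.0497) fell in CD8 cells, and each was lost without CD8+CD127-PD-1+ replicate 3 (adjusted p from 0.0623 for Rps29 to 0.176 for Rpl13a). In CD4 cells these 5 had estimates from -0.68 for Rpl39 to -0.53 for Rpl13a, and none passed (adjusted p from 0.103 for Rpl39 to 0.164 for Rps14).

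**Figure D3:**
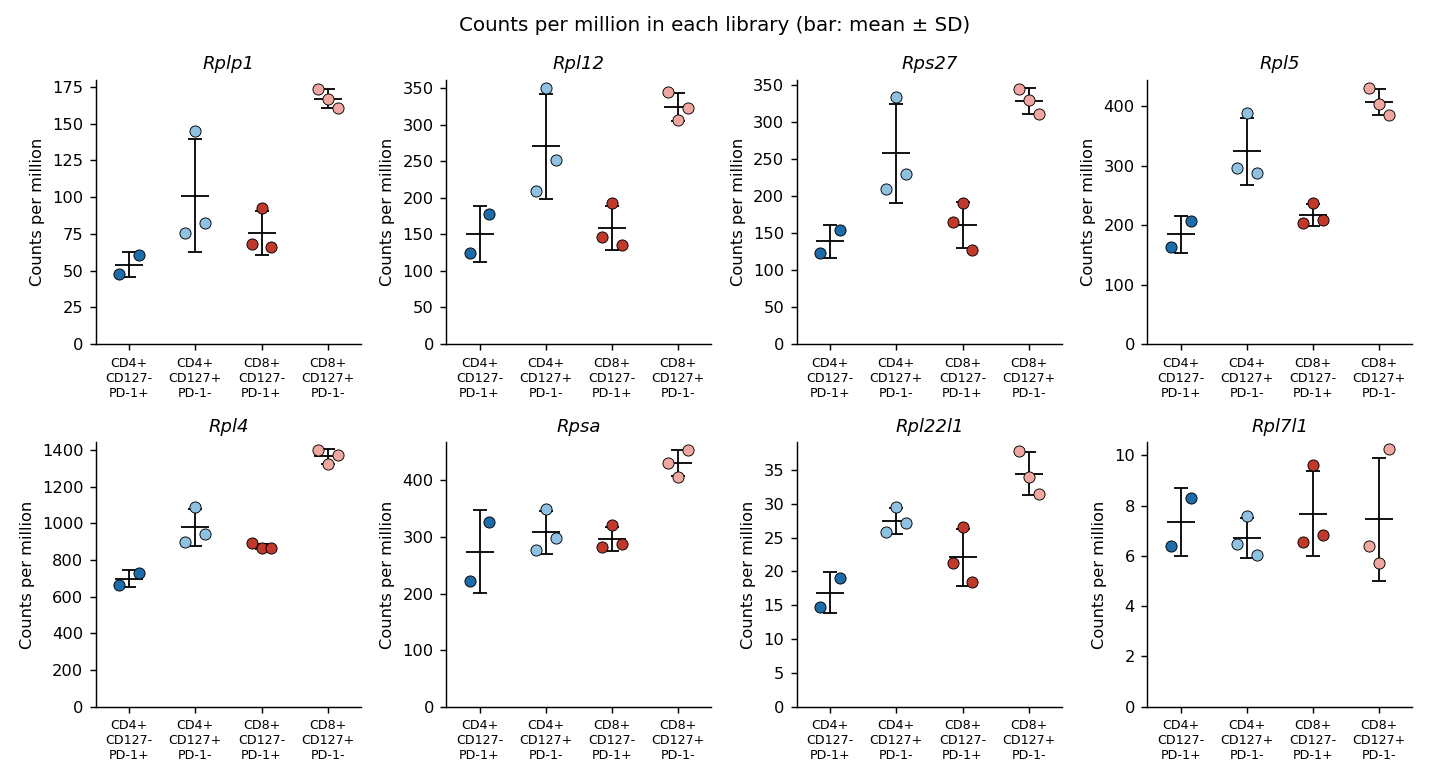
CPM of 8 members in each of the 11 libraries by sorted group; points are libraries and bars give the mean ± SD, with each vertical axis starting at 0. Rplp1, Rpl12, Rps27, Rpl5 and Rpl4 are lower in the CD127-PD-1+ groups, Rpsa overlaps between the CD4 groups, and Rpl7l1 overlaps in both lineages.

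Of the 8 paralogs, 4 were close to absent. Rpl10l was at 0 counts in every library, Rpl39l had 5 counts in all and Rpl3l, known from heart and skeletal muscle, had 11, so these and Rps4l with 42 were not tested. Of the 4 tested paralogs, Rpl22l1 fell in both lineages, with 18.4, 21.3 and 26.6 CPM against 31.5, 34.0 and 37.9 CPM in CD8 cells (-0.64, SE 0.16, adjusted p = 0.0206) and 14.7 and 19.0 CPM against 25.8, 27.1 and 29.5 CPM in CD4 cells (-0.71, SE 0.19, adjusted p = 0.0306). Rpl22 itself, which T cell precursors need in mice, had log2 fold changes of -0.62 in CD8 (SE 0.14, adjusted p = 0.0100) and -0.33 in CD4 cells (adjusted p = 0.202). The CD8 call of Rpl22l1 was lost in 4 of the 11 fits with a library left out (adjusted p = 0.0879 without CD8+CD127-PD-1+ replicate 3), and its CD4 call had an adjusted p of 0.203 without CD4+CD127-PD-1+ replicate 1. Rps27rt, whose reads cannot be surely parted from those of Rps27, fell in CD8 cells (-1.02, adjusted p = 0.0296, 7 of the 11 fits), at 2.46 to 3.81 CPM against 5.87 to 6.87 CPM. Rpl36al had log2 fold changes of -0.35 in CD8 (adjusted p = 0.139) and -0.27 in CD4 cells (adjusted p = 0.351).

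Rpl7l1 was the tested member that stood highest in both lineages. It measured 6.57, 6.85 and 9.63 CPM in CD8+CD127-PD-1+ libraries and 5.72, 6.40 and 10.3 CPM in CD8+CD127+PD-1- libraries, so the groups overlapped (0.04, SE 0.26, adjusted p = 0.941; -0.19 when scaled by total counts). In CD4 cells it measured 6.39 and 8.31 CPM against 6.05, 6.47 and 7.60 CPM (0.13, SE 0.29, adjusted p = 0.832). Rps19bp1, the member that is no ribosomal protein, had log2 fold changes of -0.23 in CD8 and 0.03 in CD4 cells (adjusted p = 0.744 and 0.974). Of the 18 members with a pseudogene name, 7 were tested, Rpl9-ps6 fell in CD8 cells (-0.79, adjusted p = 0.0462, 5 of the 11 fits with a library left out), 0 passed in CD4 cells, and together the 18 held 0.125% of all member counts. The 11 others of that class and the 4 paralogs above make up the 15 members not tested, each with at most 56 counts over the 11 libraries.

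The members were also set against their own sum, to describe how they varied among themselves. That scale was chosen after the data were seen and centres the members near 0 by construction, so its counts give no support for a common change. With library sizes taken from the members' summed counts, 0 of 81 passed in CD4 cells and 1 in CD8 cells. On that scale 24.1% of all tested genes passed in CD4 and 51.3% in CD8 cells, in either direction, since all other genes shift together. The gene past the threshold was Rpl7l1 in CD8 cells, higher by 0.77 on the log2 scale relative to the members' sum (SE 0.26, adjusted p = 0.0263). Of the 81, 59 in CD4 and 67 in CD8 cells lay within 0.25 log2 units of the sum, and at an unadjusted p under 0.05 there were 1 and 3. Rplp1, at -0.43 in CD8 cells, was the lowest there (adjusted p = 0.0564).

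Between the lineages, 79 of 81 estimates in CD127+PD-1- cells and 78 in CD127-PD-1+ cells were lower in CD4 than in CD8 cells, with few calls. Among CD127+PD-1- cells 3 of 81 members were lower in CD4 cells and 0 higher, beside 1.66% of all tested genes that were lower and 2.76% that were higher. The median was -0.44, against -0.01 over all tested genes, and the libraries did not overlap in 48 members, which held for 10.9% of all tested genes in that direction and 11.9% in the other. The 3 were Rpl4, with 899, 944 and 1091 CPM in CD4 and 1322, 1374 and 1398 CPM in CD8 libraries (-0.48, SE 0.09, adjusted p = 0.0123), Rpl13 (-0.71, SE 0.16, adjusted p = 0.0290) and Rpl10a (-0.56, SE 0.13, adjusted p = 0.0307). Same-numbered libraries met the rule for pairing given below in this comparison, which does not show that they share mice. With the title number as a replicate block 15 members were lower, or 5 with the description number, beside 328 and 436 of 16365 tested genes. Rpl4, Rpl13 and Rpl10a were among them in each. None of the 3 passed in all 11 fits with a library left out. The count was 0 without CD4+CD127+PD-1- replicate 1 or CD8+CD127+PD-1- replicate 1, beside 140 of 16212 and 177 of 16254 tested genes. It was 1 without CD4+CD127+PD-1- replicate 3 or CD8+CD127+PD-1- replicate 2, beside 143 of 16287 and 202 of 16180. Without CD4+CD127+PD-1- replicate 2 it was 22, beside 210 of 16244. That library had the highest member sum of its group (15658 CPM beside 10821 and 12218 CPM).

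Among CD127-PD-1+ cells 0 of 81 members passed between CD4 and CD8, beside 0.843% of all tested genes that were lower in CD4 cells and 1.60% that were higher. The median was -0.28, against -0.02 over all tested genes, but it was -0.04 without CD4+CD127-PD-1+ replicate 1, -0.54 without CD4+CD127-PD-1+ replicate 2 and -0.04 when scaled by total counts. With all libraries 8 members had an unadjusted p under 0.05, and 26 did not overlap, which held for 13.5% of all tested genes. Rpl4 measured 664 and 732 CPM in CD4 and 863, 866 and 892 CPM in CD8 libraries (-0.32, SE 0.11, adjusted p = 0.181), and Rpl13 and Rpl10a had log2 differences of -0.40 (adjusted p = 0.374) and -0.37 (adjusted p = 0.276). DESeq2 and limma-voom also passed 0 members, beside 292 and 106 of 16365 tested genes that were lower in CD4 cells. The comparisons between lineages use the same libraries as those between states.

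An interaction term tested whether the state change differed by lineage, and 0 of 81 members passed, with 0 at an unadjusted p under 0.05. Of all tested genes 0.00611% passed as higher and 0.0% as lower. The median of the interaction was 0.20, and without CD4+CD127-PD-1+ replicate 2 it was -0.05. The larger count of calls in CD8 cells is not itself shown to be a difference between lineages. For Rplp1 the interaction was 0.25 (SE 0.34), for Rpl5 0.10 (SE 0.20) and for Rpl31 0.02 (SE 0.17).

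The name rule missed 10 ribosomal protein symbols that the table enters under another biotype. Among them Rpl37rt is a transcribed processed pseudogene in GENCODE. Their counts stand beside 6.56% of all tested genes that fell in CD8 cells and 4.87% in CD4 cells. The median of the 10 was -0.60 in CD8 and -0.64 in CD4 cells, with 9 estimates below 0 in each. In 8 of them in CD8 and 7 in CD4 cells the states did not overlap and CD127-PD-1+ was lower. That held for 16.4% and 19.4% of all tested genes. In CD8 cells 4 of the 10 fell, namely Rpl36a (-1.06, SE 0.21, adjusted p = 0.00582), Rps16 (-0.96, SE 0.21, adjusted p = 0.0112), Rps18 (-0.87, SE 0.21, adjusted p = 0.0165) and Rpl11 (-0.61, SE 0.15, adjusted p = 0.0202), and in CD4 cells 0 did. Rpl11, the partner of Rpl5 in the 5S particle, measured 158, 175 and 194 CPM against 253, 267 and 282 CPM in CD8 cells. In CD4 cells it measured 129 and 159 CPM against 167, 190 and 256 CPM (-0.50, SE 0.17, adjusted p = 0.0872). Rps27l, a paralog of Rps27 that p53 induces, had positive log2 fold changes of 0.52 in CD8 and 0.57 in CD4 cells (adjusted p = 0.353 and 0.402). Its CD4 libraries held 5.58 and 9.08 CPM against 3.56, 5.22 and 6.05 CPM, which overlap.

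Outside the members, the 5 tested genes whose log2 CPM followed the members' mean most closely over the 11 libraries were Rps18, Rpl36a, Rpl11, Rps16 and Gnb2l1. Pearson's r ran from 0.981 to 0.998 among 5995 genes compared, over libraries that share their depth scaling, and it is given as a description. Gnb2l1 (Rack1, a scaffold protein on the head of the small subunit) measured 251 ± 43.8 CPM in CD8+CD127-PD-1+ and 410 ± 18.6 CPM in CD8+CD127+PD-1- cells (-0.71, SE 0.17, adjusted p = 0.0146, SD, n = 3 each). Its call was lost without CD8+CD127-PD-1+ replicate 1 or 3, with 0.0669 as the highest adjusted p.

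The counts of the gene lists that follow stand beside 6.56% of all tested genes that fell and 9.05% that rose in CD8 cells, and 4.87% and 6.81% in CD4 cells. Other transcripts with a TOP tract had medians below 0. Of 25 such genes tested, Gnb2l1 among them, 10 fell and 1 rose in CD8 cells (median -0.29), and 4 fell and 0 rose in CD4 cells (median -0.15). Gas5, a noncoding host of small nucleolar RNAs, measured 361 ± 17.5 CPM against 564 ± 37.9 CPM in CD8 cells (-0.65, SE 0.09, adjusted p = 0.000622) and 323 ± 9.63 CPM against 429 ± 13.0 CPM in CD4 cells (-0.41, SE 0.10, adjusted p = 0.0194). Eef1g, a subunit of a translation elongation factor complex, fell in CD8 (-0.73, SE 0.11, adjusted p = 0.00110) and CD4 cells (-0.58, SE 0.12, adjusted p = 0.0113). The CD8 calls of both passed in all 11 fits with a library left out, and without CD4+CD127-PD-1+ replicate 1 the CD4 adjusted p was 0.114 for Gas5 and 0.0928 for Eef1g.

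Of 53 ribosome biogenesis factors, 10 fell and 0 rose in CD8 cells (median -0.29) and 4 fell and 0 rose in CD4 cells (median -0.24), the CD4 count being near the 4.87% of all genes. Wdr12, part of the complex that processes large subunit RNA, measured 9.73 ± 1.48 CPM against 21.6 ± 4.98 CPM in CD8 cells (-1.15, SE 0.22, adjusted p = 0.00453) and 8.70 ± 1.37 CPM against 25.9 ± 5.44 CPM in CD4 cells (-1.57, SE 0.25, adjusted p = 0.00286, SD, n = 3, 3, 2 and 3). Its calls passed in all 11 fits of each comparison. Las1l, a nuclease of the same pathway, fell by 0.87 in CD8 cells (adjusted p = 0.00374) and by 0.84 in CD4 cells (adjusted p = 0.0129, or 0.0940 without CD4+CD127-PD-1+ replicate 2).

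Of 34 subunits and factors of RNA polymerases I and III, which make ribosomal and transfer RNA, 3 fell and 0 rose in CD8 cells (median -0.16) and 1 fell and 0 rose in CD4 cells (median -0.16), which is near the share of all genes that fell, 6.56% and 4.87%. Polr3b, a catalytic subunit, fell by 0.46 in both lineages (adjusted p = 0.0169 in CD8 and 0.0368 in CD4 cells), but its calls passed in 8 and 4 of the 11 fits with a library left out. Taf1d, a polymerase I factor, fell by 0.47 in CD8 cells (adjusted p = 0.0184, 8 of the 11 fits). The highest adjusted p with a library left out was 0.0701 for Polr3b in CD8 cells and 0.169 in CD4 cells, and 0.0782 for Taf1d.

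The 34 tested genes of the mTOR and S6 kinase axis showed no common direction, with 3 lower and 3 higher in CD8 cells (median -0.05) and 1 lower and 1 higher in CD4 cells (median 0.06). Rictor, the defining subunit of mTOR complex 2, measured 122 ± 2.83 CPM against 178 ± 9.59 CPM in CD8 cells (-0.55, SE 0.09, adjusted p = 0.00144) and 114 ± 0.295 CPM against 168 ± 8.94 CPM in CD4 cells (-0.56, SE 0.10, adjusted p = 0.00468, SD, n = 3, 3, 2 and 3). Sesn3, an inhibitor of mTOR complex 1, fell by 0.60 in CD8 cells (adjusted p = 0.00664). These calls passed in all 11 fits with a library left out. Rragc, a GTPase that brings mTOR to the lysosome, rose by 0.60 in CD4 cells (adjusted p = 0.0404), a call that passed in 4 of the 11 fits (adjusted p = 0.337 without CD4+CD127-PD-1+ replicate 1).

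Of 24 tested chaperones of ribosomal proteins and genes of the ribosome stress response, 2 fell and 3 rose in CD8 cells and 1 fell and 1 rose in CD4 cells. Zak, the kinase that senses stalled and collided ribosomes, measured 10.3 ± 1.75 CPM against 2.81 ± 1.54 CPM in CD8 cells (1.88, SE 0.40, adjusted p = 0.00806) and 6.27 ± 2.35 CPM against 0.749 ± 0.0902 CPM in CD4 cells (3.04, SE 0.49, adjusted p = 0.00276, SD, n = 3, 3, 2 and 3). Cdkn1a, the p53 target that blocks the cell cycle, measured 84.4 ± 39.5 CPM against 22.5 ± 5.07 CPM in CD8 cells (1.91, SE 0.35, adjusted p = 0.00375). The calls of Zak and Cdkn1a passed in all 11 fits, and the macrophage marker sums given above moved the same way, whose part in these values was not tested. Tsr2, the chaperone of Rps26, fell by 0.97 in CD4 cells (adjusted p = 0.0187, or 0.0984 without CD4+CD127-PD-1+ replicate 1).

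Ribosomal proteins of the mitochondrion, which are encoded in the nucleus but build a separate ribosome, had medians near or above 0. Of 75 tested, 1 fell and 0 rose in CD8 cells (median -0.01), and 0 passed in CD4 cells (median 0.22), where 10 had an unadjusted p under 0.05 and 21 of the 75 estimates were below 0. The gene that fell was Mrpl24 (-0.54, SE 0.16, adjusted p = 0.0358, past the threshold in 5 of the 11 fits with a library left out and at 0.117 without CD8+CD127-PD-1+ replicate 3).

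**Figure D4:**
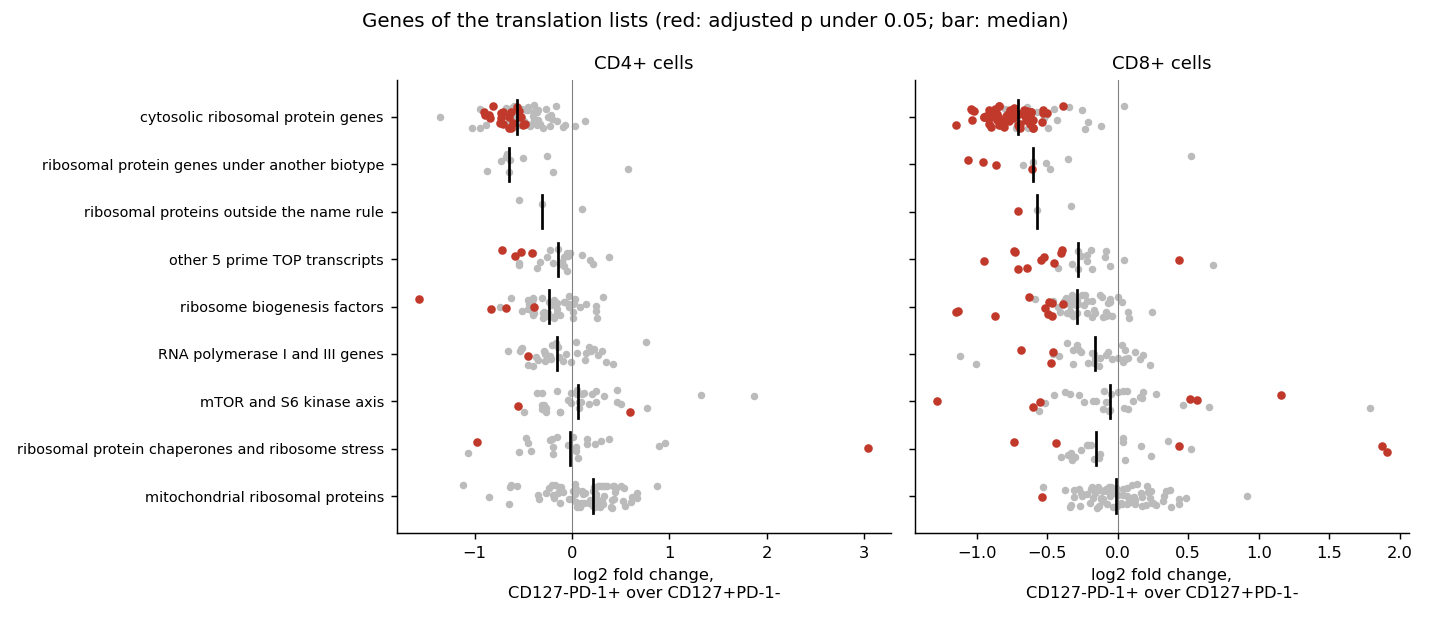
Log2 fold change of CD127-PD-1+ over CD127+PD-1- for the genes of each list in CD4 cells (left) and CD8 cells (right); points are genes, red points have an adjusted p under 0.05, and the bar is the list's median. The cytosolic ribosomal protein genes sit to the left of 0 (medians -0.57 and -0.71), and the mitochondrial ribosomal proteins around it (0.22 and -0.01).

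Across the 11 libraries, the member sum stood beside the marker sums as follows. The 5 CD127-PD-1+ libraries, with 682 to 1590 CPM of macrophage markers, had member sums of 7598 to 12114 CPM. The 6 CD127+PD-1- libraries, with 37.7 to 77.5 CPM, had 10821 to 18159 CPM. Within CD4+CD127-PD-1+ the library with more macrophage markers, 1590 beside 774 CPM, had the lower member sum, 7598 beside 9919 CPM. Within CD8+CD127-PD-1+ the library with the fewest macrophage markers, 682 CPM, had 10117 CPM of member counts, and those with 1223 and 1319 CPM had 12114 and 9482 CPM.

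**Figure D5:**
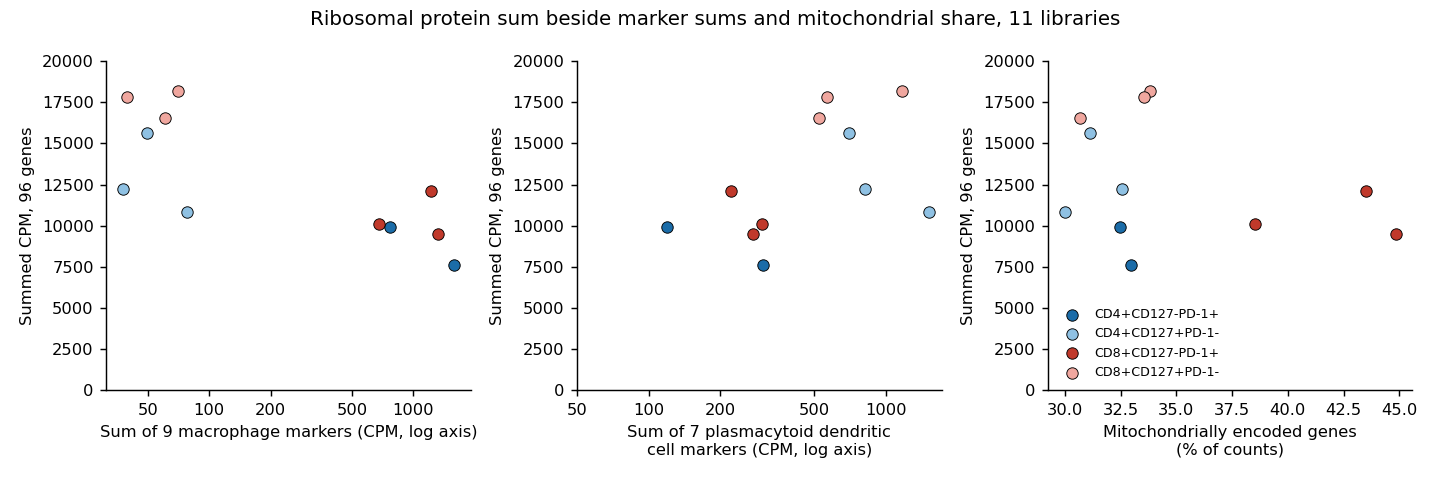
Summed CPM of the 96 members (vertical axes) against the sum of 9 macrophage markers (left, log axis), the sum of 7 plasmacytoid dendritic cell markers (middle, log axis) and the percentage of counts from mitochondrially encoded genes (right) in the 11 libraries; colour gives the group. The 2 states lie apart on the macrophage axis (682 to 1590 against 37.7 to 77.5 CPM), so state and marker level moved together.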

How the data were processed

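The deposited table holds raw read counts per gene, used as deposited; the submitters' processing notes list STAR, featureCounts and GRCm38, and per the labels' protocols 2 ng of RNA went into isothermal amplification and 75-base single reads. Versions, strand setting and the treatment of reads with several matches are not stated in the sources used, so counts of a ribosomal protein gene, its processed pseudogenes and any overlapping gene may be split uncertainly. Of the columns, 11 matched labelled samples and 1 did not and was not used.

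Genes passing filterByExpr (16365) were fitted in R 4.3.3 with edgeR 4.0.16 (TMM, quasi-likelihood, 4 group means, all 11 libraries, Benjamini-Hochberg over all tested genes, threshold 0.05). CPM use TMM-scaled library sizes; SE is the absolute estimate over the root of its F statistic; a prior count of 2 entered log2 CPM only. The common biological coefficient of variation was 0.244. Exon lengths and gene coordinates are from GENCODE M21, promoters from RefSeq (GRCm38.p6). Named genes were those of stated roles, the 5 largest and 5 smallest called differences with average log2 CPM of 4 or more, the 5 highest and lowest per kb, the 5 most alike and, per other list and state comparison, the 2 called genes with the smallest p. Some genes that meet this rule are not reported here. Members, lists and markers were chosen with earlier results of these data known. Alternatives were other scalings, filters, tools (DESeq2 1.42.0, limma 3.58.1), replicate blocks and leaving out each library. Same-numbered libraries were taken as paired where every one of at least 3 pairs had deviations correlated above 0.1 over all tested genes. That held for CD4 over CD8 in the CD127+PD-1- state (r = 0.208, 0.147 and 0.318, or -0.30, -0.01 and 0.27 over the members) and in no other comparison. Comparisons with the 2 CD4+CD127-PD-1+ libraries could not meet this rule. By description number the CD8 state had r = 0.113 and 0.159, too few pairs for it. The sample titles do not say that same-numbered pools share mice.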

Additional observations from a re-analysis of the deposited data

How the results depend on the processing

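Member medians were below 0 in both state comparisons under every alternative run, from -0.78 to -0.38 in CD4 and from -0.95 to -0.63 in CD8 cells, apart from library sizes set to the members' own sum (added after seeing the data: medians -0.0002 and 0.014, with 0 and 1 called). Of 81 members, CD4 state calls numbered 41 with no low-count filter and 6 with only the compared groups fitted. Beside these, 944 of 29203 and 572 of 14871 tested genes fell, against 797 of 16365 in the main fit. For CD4 over CD8 in CD127+PD-1- cells the count was 23 with no filter, 15 with DESeq2, 7 with limma-voom and 7 with only the compared groups. The genes lower over all tested were 578 of 29203, 526 of 16365, 232 of 16365 and 282 of 14328 in that order. In the main fit they were 271 of 16365. The replicate numbers met the rule for pairing only in that lineage comparison. With the title number as a replicate block the counts were 36 for the CD4 state and 15 for that lineage comparison. They stand beside 849 and 328 of 16365 tested genes that were lower. With the description number they were 28 for the CD8 state and 5 for the lineage comparison, beside 793 and 436 of 16365. Leaving out each library gave 1 to 23 calls for the CD4 state, 21 to 67 for the CD8 state and 0 to 22 for the lineage comparison; where a group kept 1 library, its spread was taken from the other groups. The causes were not tested.

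Scaling by total counts shifted the median of all tested genes to -0.23 in the CD8 state, 0.23 for CD4 over CD8 in CD127-PD-1+ cells and 0.24 for the interaction, with member medians of -0.95, -0.04 and 0.43. Among genes, the sign turned for Rps19bp1 in CD4 cells under the title block (-0.11) and the description block (-0.0065), and for Rpl7l1 in CD8 cells with total counts (-0.19). With libraries left out, CD4 estimates ran from -0.064 to 0.31 for Rpl7l1, from -0.23 to 0.35 for Rps19bp1, from -0.86 to 0.016 for Rps26 and from -0.47 to 0.085 for Rpsa, and CD8 estimates from -0.15 to 0.34 for Rpl7l1 and from -0.61 to 0.063 for Rps19bp1.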

Other observations

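In every group other than CD8+CD127+PD-1-, the library with the highest member sum also had the lowest ratio of large to small subunit CPM. The ratios were 1.68 and 1.46 at member sums of 7598 and 9919 CPM in CD4+CD127-PD-1+, and 1.57, 1.47 and 1.49 at 10821, 15658 and 12218 CPM in CD4+CD127+PD-1-. In CD8+CD127-PD-1+ they were 1.63, 1.44 and 1.64 at 10117, 12114 and 9482 CPM, whereas in CD8+CD127+PD-1- they were 1.48, 1.49 and 1.47 at 18159, 16557 and 17815 CPM. This was noticed after the values were seen and carries no test.

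Symbols of ribosomal protein copies, most with a pseudogene name, that the rule did not take numbered 246 in the table, of which 54 were tested. Their counts were 1.41% ± 0.182 of member counts in CD4+CD127-PD-1+, 1.28% ± 0.123 in CD4+CD127+PD-1-, 1.30% ± 0.0728 in CD8+CD127-PD-1+ and 1.12% ± 0.0397 in CD8+CD127+PD-1- libraries (SD, n = 2, 3, 3 and 3). In CD8 cells 3 fell and 1 rose, and in CD4 cells 0 fell and 1 rose. Of all tested genes 6.56% fell and 9.05% rose in CD8 cells, and 4.87% fell and 6.81% rose in CD4 cells. The calls among the copies were thus near or below the shares of all genes, but their estimates leaned the same way as those of the members. The median of the 54 was -0.49 in CD4 and -0.58 in CD8 cells, with 46 and 49 estimates below 0. In 18 copies in CD4 and 21 in CD8 cells the states did not overlap and CD127-PD-1+ was lower. That held for 19.4% and 16.4% of all tested genes.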
